A study of Mus musculus with 15 samples.

Results

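The group described here is the collagens and extracellular matrix genes of mouse brown fat. It holds every probe set whose single platform symbol is a collagen chain (Col, a number, a, a number), with Fn1, Sparc, Postn, Lox, Loxl1, Timp1, Mmp2, Mmp3, Mmp14, Bgn, Dcn, Lum, Tnc and Thbs2. Fbn1 and Loxl2 were also listed, but no probe set with either as its single symbol was used here. This gave 56 of the 18194 genes, 42 of them collagens, from 111 probe sets. Where a gene had several probe sets, the brightest on average was used. Of the 56, 41 (27 collagens and all 14 others) had a mean above 5.061 on the log2 scale and were tested among 13174 genes. The other 15, all collagens such as Col2a1, Col10a1 and Col17a1, had means of 2.96 to 5.06 and were not tested.

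Total RNA of interscapular brown adipose tissue was measured on 15 arrays, 1 per mouse, in 3 groups of 5 adult male wild-type C57BL/6N mice, all on a high-fat diet and all sampled on day 5. Mice of the FGF21 group (replicates 36 to 40) were given human FGF21 at 1 mg/kg, 2 doses a day (2 mg/kg each day). The aFGFR1/KLB group (41 to 45) had 1 intraperitoneal dose of 10 mg/kg bFKB1, an antibody that activates the receptor pair FGFR1 and KLB, through which FGF21 also signals. For the control group (31 to 35) the labels name no injected substance. Values are log2 intensities. The level of 1 gene cannot be set against that of another on this scale.

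Collagens are triple helices that cells secrete and join into fibrils (types I, III and V), into the sheet-like network of basement membranes (type IV) or into beaded filaments (type VI). Fibril-associated collagens coat the fibrils, lysyl oxidases cross-link them, and matrix metalloproteinases cut them under the control of tissue inhibitors. In fat, fibroblasts and adipose progenitors make much of the fibrillar matrix, and each adipocyte and capillary lies in a basement membrane rich in type IV collagen.

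Type IV collagen genes are paired head to head, and members that passed a test include 1 such pair. In RefSeq (GRCm38.p6), the annotated starts of Col4a1 (minus strand) and Col4a2 (plus strand) lie 21 bases apart, so that a short stretch between them is downstream of both starts. It is shown on the plus strand (chr8:11312805-11312826), with the 250 bases before the starts of Timp1 (plus strand, chrX:20869916-20870165) and Col27a1 (plus strand, chr4:63215162-63215411), which also passed a test. Capitals mark a CCAAT box (CCAAT, or ATTGG on the other strand) or a GC box (GGGCGG, or CCGCCC). Only upstream bases were searched, so nothing is marked in the stretch between the type IV genes.
Col4a1 and Col4a2 starts: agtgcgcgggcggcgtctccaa
Timp1: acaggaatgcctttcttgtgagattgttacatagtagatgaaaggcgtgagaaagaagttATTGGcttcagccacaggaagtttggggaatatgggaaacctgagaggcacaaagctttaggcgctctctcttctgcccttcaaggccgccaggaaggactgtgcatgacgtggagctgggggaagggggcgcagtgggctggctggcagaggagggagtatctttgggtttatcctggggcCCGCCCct
Col27a1: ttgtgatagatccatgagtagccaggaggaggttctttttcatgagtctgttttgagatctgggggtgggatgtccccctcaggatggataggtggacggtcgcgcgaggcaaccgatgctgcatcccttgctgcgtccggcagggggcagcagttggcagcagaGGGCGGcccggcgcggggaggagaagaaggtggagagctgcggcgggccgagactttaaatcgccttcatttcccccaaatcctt
Promoter windows were in the RefSeq table for 29 of the 41 tested members, in 34 windows. The GC box was in 55.9% of these windows and in 32.7% of all 32851 windows of 250 bases. For the CCAAT box the shares were 41.2% and 33.8%, and for the TATA box (TATAAA) 20.6% and 12.4%. The AP-1 motif (TGANTCA), searched like the others on both strands, was in 5.88% and 6.75%. These are matches of letters, not binding sites.

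Control 34 and FGF21 36 stood apart in the matrix genes before any group was compared. Control 34 was the highest control in 32 of the 41 members, against 31.5% of all genes tested, and FGF21 36 was the highest FGF21 array in 28 of 41, against 28.9%. Control 34 lay more than 1 log2 unit above the mean of the other 4 controls in 26 members (6.13% of all genes), and FGF21 36 lay that far above the other 4 FGF21 arrays in 21 (5.66%), with 18 members in both. In control 34 the gaps were widest in Mmp14 (3.16, an 8.92-fold excess), Tnc (3.06) and Col1a1 (2.93), and in FGF21 36 in Thbs2 (2.35) and Col1a1 (2.22). Col27a1 went the other way, with control 34 0.93 below the other controls. The median SD of the members was 0.741 in controls, 0.672 in FGF21 and 0.224 with the antibody. Over all genes tested it was 0.163, 0.159 and 0.111 in the same order. Without control 34 and FGF21 36 the members' median SD was 0.253 in controls and 0.407 in FGF21, against 0.112 and 0.12 over all genes. Both arrays were singled out by such values, so the fit of all 15 arrays was repeated with the 13 others, and the narrower spread of the second fit follows in part from that choice.

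**Figure D1:**
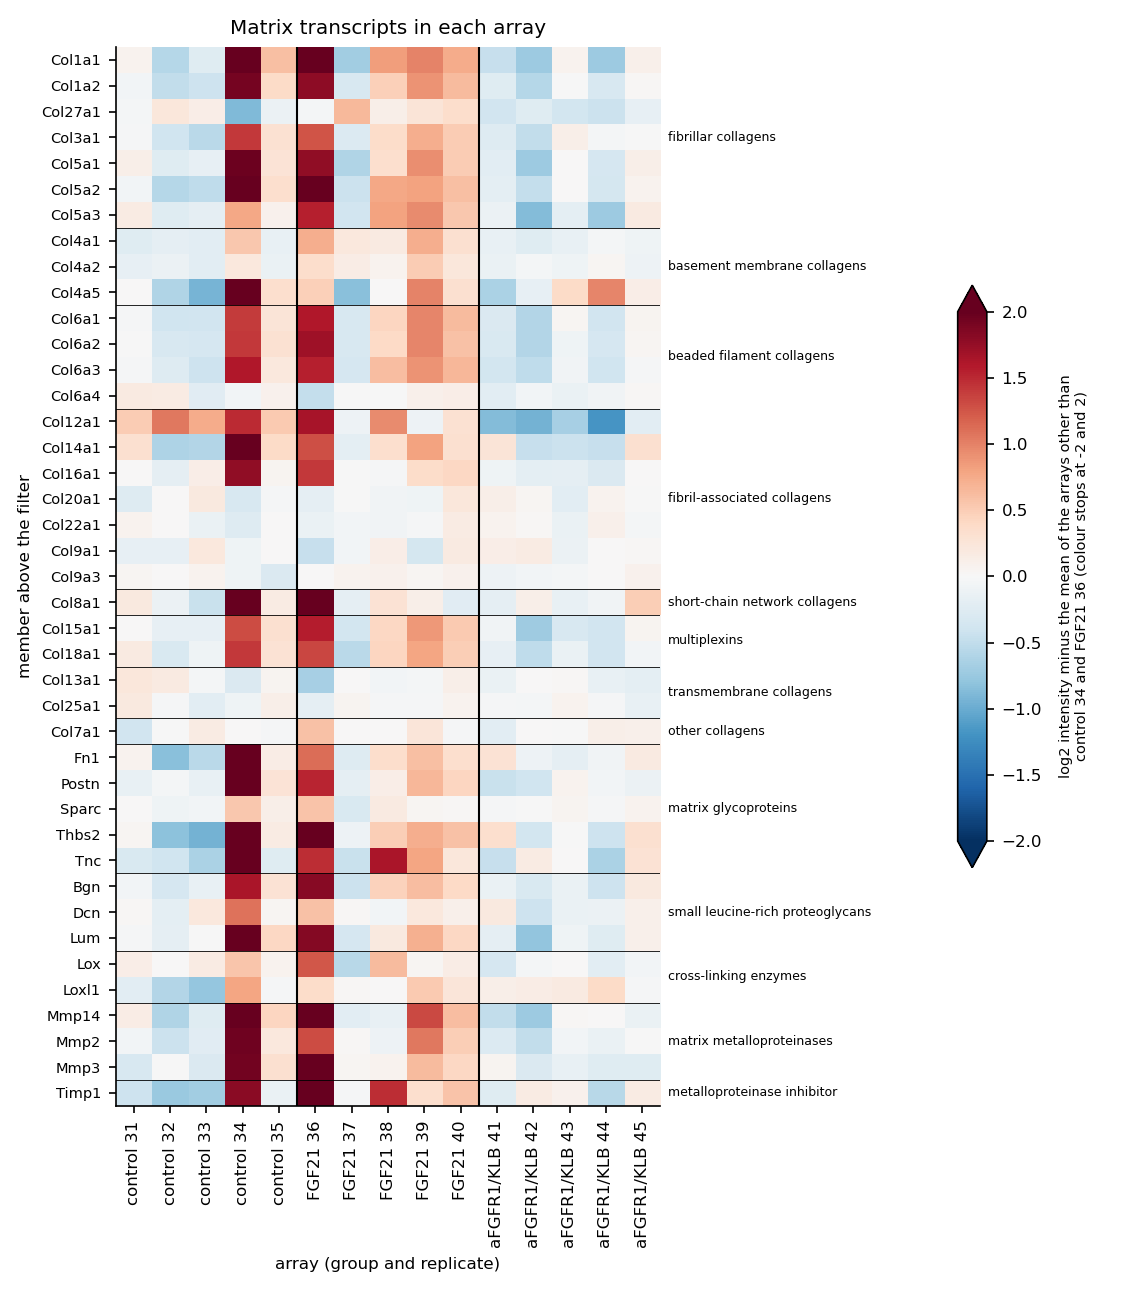
Heat map of the 41 tested members (rows, by role) in the 15 arrays (columns, by group). Colour gives each log2 intensity minus the gene's mean over the 13 arrays other than control 34 and FGF21 36. Those 2 columns are the reddest, and Col12a1 is blue in all 5 aFGFR1/KLB arrays.

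Most macrophage and all fibroblast markers were highest in the 2 arrays that stood apart, while most markers of other cells were not. The summed intensity of 13 macrophage markers was 48219 in control 34 and 6816 to 15317 in the other controls. It was 57424 in FGF21 36, 8316 to 26345 in the other FGF21 arrays and 11270 to 19996 with the antibody. Of these 13 markers 12 were highest in control 34 or FGF21 36, as were all 12 fibroblast and progenitor markers tested, whose sum was 28287 and 34257 in those arrays and 11021 to 21508 in the others. Some genes of that list, such as Dpt, Fbln1 and Mfap5, are also matrix genes, so the list is not separate from the members in kind. Within FGF21 the order was the same for members and macrophage markers: the median deviation of the members was 1.33 in FGF21 36, 0.64 in 39, 0.35 in 40, 0.20 in 38 and -0.18 in 37, and that of the macrophage markers 1.90, 0.84, 0.50, 0.41 and -0.59. Skeletal muscle markers ran from -4.33 in FGF21 38 to 4.26 in aFGFR1/KLB 45, with FGF21 36 at 4.24 and control 34 at 1.17. No macrophage marker passed the test in any comparison, and their part in the matrix results was not tested. In whole tissue, fewer cells of a type and less RNA per cell cannot be told apart. All 10 brown adipocyte markers, Ucp1 among them, were at 7.49 or higher in every array. Of these, 0 were highest in control 34 or FGF21 36, as were 0 of 10 endothelial and 0 of 4 Schwann cell markers. The numbers were 2 of 7 for adipocytes, 2 of 9 for mural cells, 1 of 4 for B cells and 6 of 13 for skeletal muscle. The share of all genes that were highest in these 2 arrays was not computed.

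**Figure D2:**
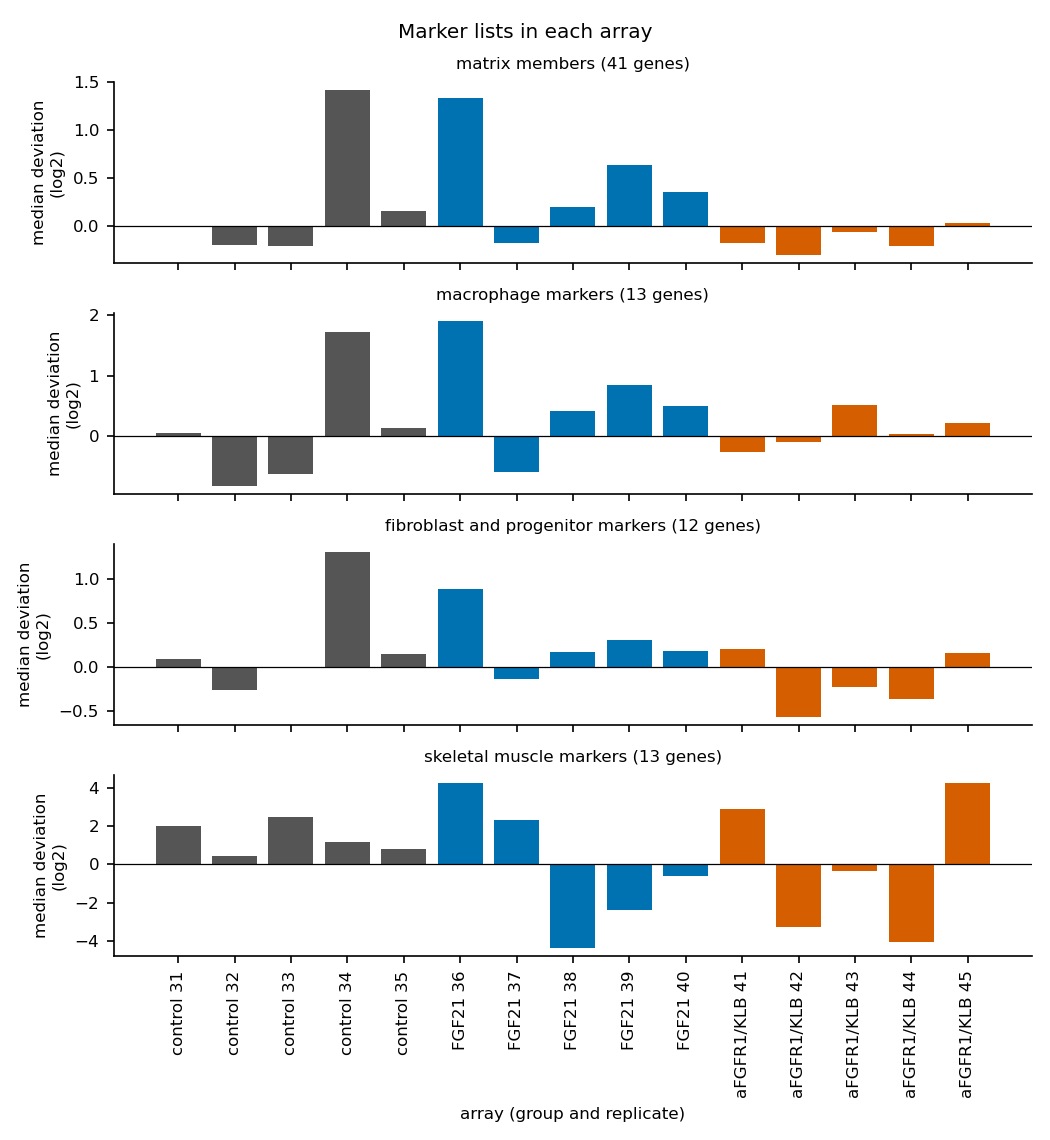
Median deviation (log2, from the mean of the 13 arrays other than control 34 and FGF21 36) of the matrix members and of 3 marker lists in each array. Grey bars are controls, blue FGF21 and orange aFGFR1/KLB. Members, macrophage and fibroblast markers peak in control 34 and FGF21 36, while muscle markers vary most within the treated groups.

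Few members passed in any comparison, and the median of the members was lower with the antibody than with FGF21. With all 15 arrays, FGF21 minus control was above 0 in 34 of 41 members (45.5% of all genes) with a median log2 difference of 0.21, against -0.02 over all genes. In limma, with p adjusted over all 13174 genes and a threshold of 0.05, 1 member rose, against 2.64% of all genes, and 0 fell, against 3.68%. Antibody minus control was below 0 in 34 members (54.9% of all genes) with a median of -0.34, against -0.02 over all genes. Here 1 member fell (2.49% of all genes) and 0 rose (2.69%). Antibody minus FGF21 was below 0 in 37 members (46.3% of all genes) with a median of -0.67, against 0.01 over all genes. In limma 0 were lower (0.243% of all genes) and 0 higher (0.129%), while 11 had an unadjusted p under 0.05 (13.5% of all genes). With limma's array weights 9 passed as lower, but the share of all genes under array weights was not computed. In FGF21 minus control, 3 members had an unadjusted limma p under 0.05 (20.4% of all genes). In antibody minus control it was 1 member (19.4% of all genes). Both comparisons with control share the controls, and the third shares the treated arrays with them. The 3 sets of signs are therefore not separate evidence. Members also moved together within an array. Control 34 was the highest control in 32 of 41 members, FGF21 36 the highest FGF21 array in 28 and FGF21 37 the lowest in 25. The signs of different members within a comparison are therefore not separate evidence either, and the sign counts were not tested.

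The share of the 41 members whose groups did not overlap was above that of all genes between the treatments, and below it against control. These shares were not tested. All antibody arrays lay below all FGF21 arrays in 4 members, Col12a1, Col27a1, Col4a1 and Col4a2 (2.3% of all genes), and below all controls in 1, Col12a1 (4.17% of all genes). No member had all FGF21 arrays above all controls (2.37% of all genes).

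In the fit of the 13 other arrays, 4 members rose with FGF21, against 6.77% of all genes, and 0 fell, against 9.46%. With the antibody 1 rose and 2 fell, against 5.41% and 6.97%. Between the treatments 3 were lower with the antibody, against 1.03%, and 0 were higher, against 0.797%. The medians of the members became 0.36 in FGF21 minus control, -0.08 in antibody minus control and -0.47 in antibody minus FGF21. FGF21 minus control was then above 0 in 36 of 41 members (45.9% of all genes) and antibody minus FGF21 below 0 in 36 (49.5%). Antibody minus control was below 0 in 24, down from 34, against 54.8% of all genes. Leaving out control 34 alone gave 5 calls in FGF21 minus control, 2 in antibody minus control and 4 in antibody minus FGF21. The shares of all genes in that fit were not computed. Control 34 is in neither group of antibody minus FGF21, so the differences there stayed the same and only the shared estimate of spread changed. The median SE of a member's difference was 0.333 with all arrays, with SEs of 0.0669 to 0.623. The 2 arrays were left out because of values of these same members. No count of members in the fit of 13 arrays can therefore be read against its share of all genes.

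**Figure D3:**
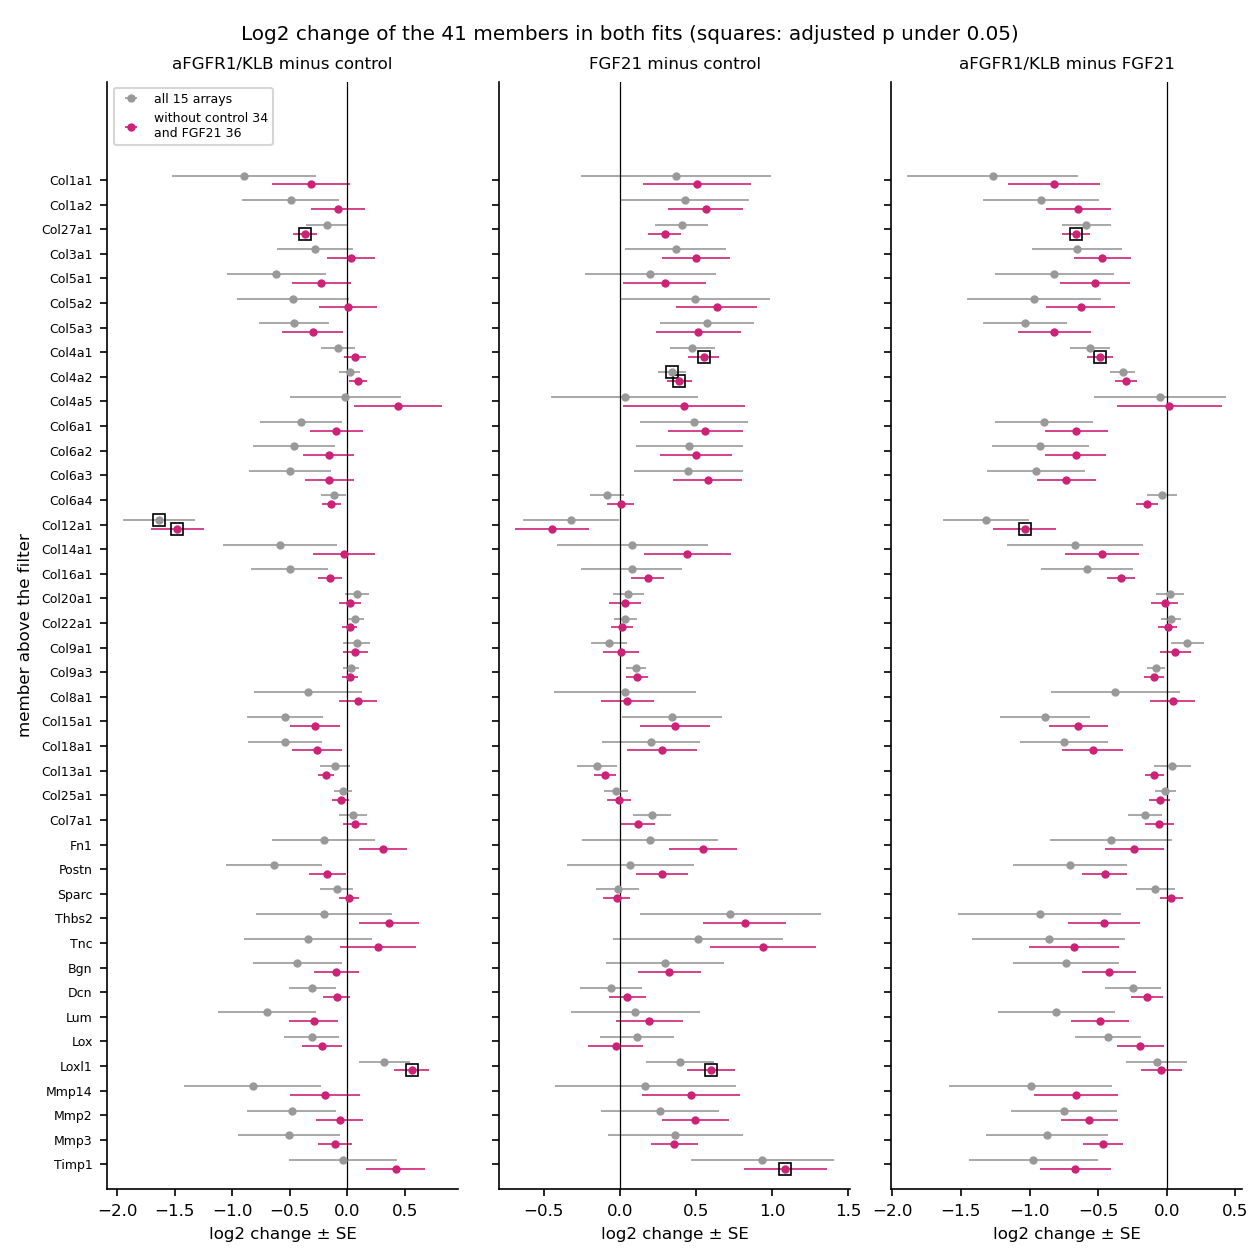
Log2 change (± SE, limma) of the 41 tested members in the 3 comparisons, with all 15 arrays (grey) and without control 34 and FGF21 36 (magenta). Squares mark adjusted p under 0.05. Col12a1 has squares in both fits of aFGFR1/KLB minus control, and Col4a2 in both fits of FGF21 minus control.

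Fibrillar collagens, 7 of 11 tested, had no member that passed in any comparison with all 15 arrays. Col1a1, a chain of type I collagen, read 9.55, 8.91, 9.23, 12.38 and 10.08 in controls 31 to 35, 12.18, 8.79, 10.32, 10.48 and 10.22 in FGF21 36 to 40, and 9.03, 8.75, 9.55, 8.75 and 9.58 in aFGFR1/KLB 41 to 45. The 3 groups overlapped, and control 34 and FGF21 36 stood above the other 13 arrays. Antibody minus FGF21 was -1.27 ± 0.62 (SE, limma adjusted p = 0.391) with all arrays and -0.82 ± 0.34 (adjusted p = 0.264) without those arrays. Col3a1, the type III chain found with type I in soft tissue, read 13.23, 12.85, 12.73, 14.68 and 13.57 in controls, 14.52, 12.98, 13.63, 13.99 and 13.77 with FGF21, and 12.999, 12.77, 13.38, 13.22 and 13.26 with the antibody. Its groups overlapped as well, with antibody minus FGF21 at -0.65 ± 0.33 (adjusted p = 0.398), and at -0.47 ± 0.21 (adjusted p = 0.307) without those arrays. All 7 tested fibrillar chains had lower means with the antibody than with FGF21, from -0.59 (Col27a1) to -1.27 (Col1a1). Against control, the 7 were positive with FGF21 (0.20 to 0.57) and negative with the antibody (-0.90 to -0.18). Without control 34 and FGF21 36 they stayed positive with FGF21 (0.29 to 0.64), but with the antibody 5 were negative and 2, Col3a1 and Col5a2, just above 0 (-0.37 to 0.03), and the median went from -0.47 to -0.23.

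Col27a1, a fibrillar collagen known from cartilage, was the fibrillar member whose pattern was unlike the rest. It read 10.34, 10.61, 10.51, 9.50 and 10.27 in controls, 10.35, 11.03, 10.50, 10.64 and 10.73 with FGF21, and 10.00, 10.14, 10.01, 9.96 and 10.21 with the antibody. Every antibody array was below every FGF21 array, and control 34 was the lowest of all 15. Antibody minus FGF21 was -0.59 ± 0.18 (limma adjusted p = 0.175) with all arrays. Without control 34 and FGF21 36 it fell by 0.66 ± 0.10 on the log2 scale (adjusted p = 0.00791), and antibody minus control fell by 0.37 ± 0.10 (adjusted p = 0.0349). A second Col27a1 probe set gave -0.67 between the treatments in that fit (adjusted p = 0.00942 over 27060 probe sets) and -0.33 against control (adjusted p = 0.0731).

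Of the basement membrane collagens, 3 of 6 were tested. Col4a1 and Col4a2 are the 2 chains of the common type IV network, and Col4a2 rose with FGF21 in both fits, Col4a1 in that of 13 arrays. Col4a2 read 11.34, 11.38, 11.29, 11.70 and 11.36 in controls, 11.85, 11.64, 11.56, 12.01 and 11.72 with FGF21, and 11.37, 11.46, 11.42, 11.54 and 11.39 with the antibody. All FGF21 arrays exceeded all antibody arrays and all controls but control 34. It rose by 0.34 ± 0.09 with FGF21 (1.27-fold, limma adjusted p = 0.0381) with all arrays, and by 0.39 ± 0.08 (adjusted p = 0.00645) without control 34 and FGF21 36. The first call ended in 10 of the 15 fits that left out 1 array. Col4a1 read 11.48, 11.55, 11.51, 12.26 and 11.58 in controls, 12.44, 11.94, 11.90, 12.45 and 12.04 with FGF21, and 11.57, 11.49, 11.57, 11.69 and 11.64 with the antibody. Its FGF21 arrays also exceeded every antibody array and every control but control 34. The FGF21 difference was 0.48 ± 0.15 (adjusted p = 0.0721) with all arrays. Without the 2 arrays it rose by 0.55 ± 0.10 (1.46-fold, adjusted p = 0.00274) and was lower with the antibody than with FGF21 by a log2 change of -0.49 ± 0.09 (adjusted p = 0.0224). Its second probe set rose by 0.66 with FGF21 with all 15 arrays (adjusted p = 0.00682 over 27060 probe sets). Col4a5, a chain of other type IV networks, read 5.87 to 8.78 in controls, 5.97 to 7.79 with FGF21 and 6.16 to 7.78 with the antibody. Its groups overlapped widely, and FGF21 minus control was 0.03 ± 0.48 (adjusted p = 0.978) with all arrays and 0.42 ± 0.40 (adjusted p = 0.515) without the 2 arrays. With all arrays, antibody minus control was near 0 for Col4a1 (-0.08 ± 0.15, adjusted p = 0.825) and Col4a2 (0.02 ± 0.09, adjusted p = 0.936).

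**Figure D4:**
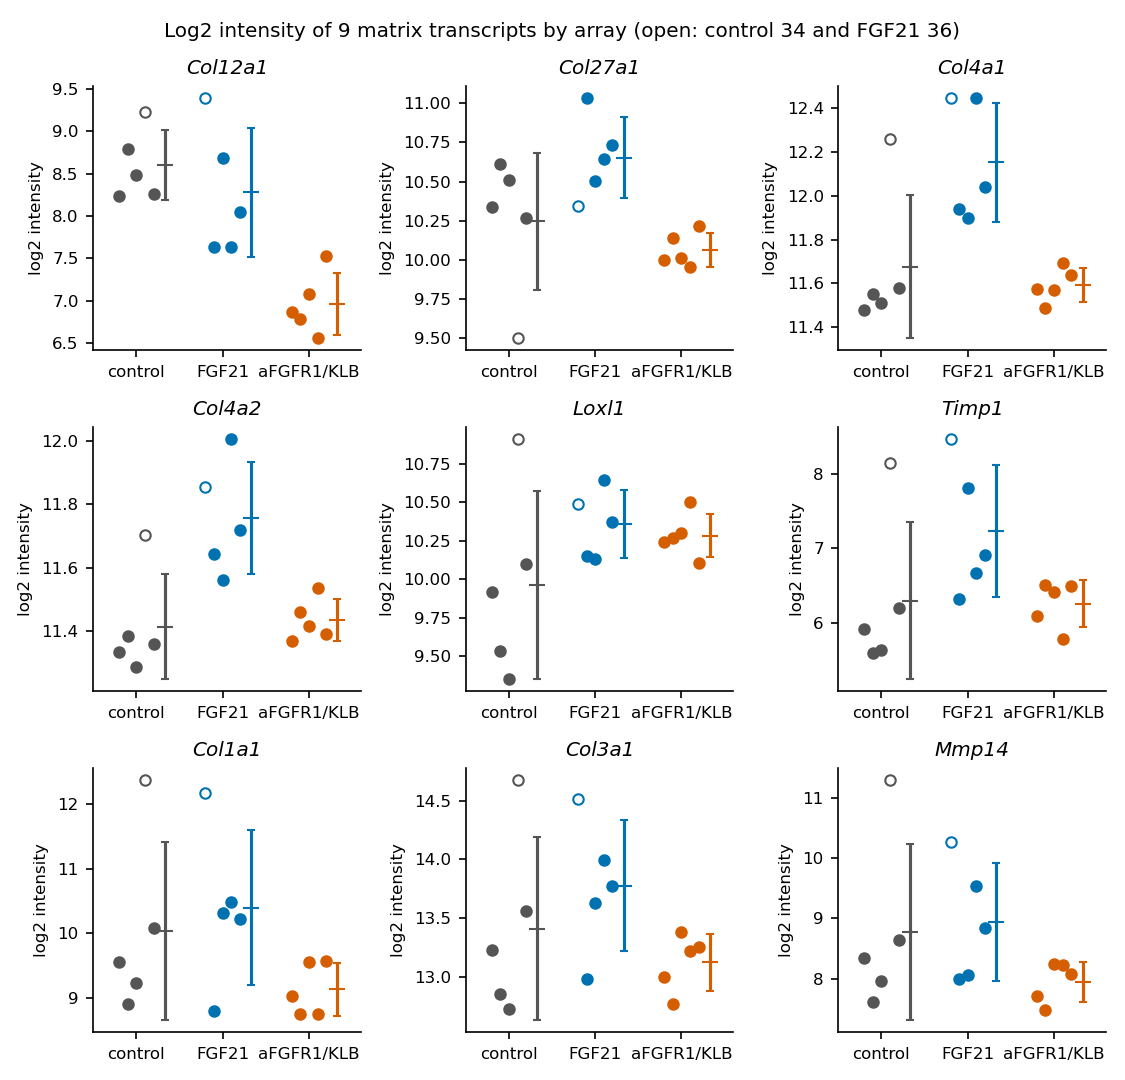
Log2 intensity of 9 matrix genes in each array (points; open for control 34 and FGF21 36), with the mean ± SD of all 5 arrays of a group beside them. Col12a1 lies lower in every aFGFR1/KLB array than in any other array, and Col4a1 and Col4a2 lie higher in every FGF21 array than in any aFGFR1/KLB array.

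Col4a1 and Col4a2 lie beside other basement membrane genes among the pathway lists. Of 11 laminins and related proteins tested, 1 rose with FGF21 (2.64% of all genes) and 1 with the antibody (2.69%). Lamb1, a laminin beta chain, rose with FGF21 by 0.74 ± 0.16 (limma adjusted p = 0.0129), and Lamb3 rose with the antibody by 0.74 ± 0.15 (adjusted p = 0.0129). Lamb1 read 10.05, 10.10, 10.04, 11.02 and 10.11 in controls, 10.80, 11.00, 10.86, 11.26 and 11.12 with FGF21, and 10.28, 10.25, 10.39, 10.34 and 10.25 with the antibody. Control 34 again lay among the FGF21 arrays. In the fit without control 34 and FGF21 36, 3 of the 11 were higher with FGF21 than with control (6.77% of all genes), and 3 were lower with the antibody than with FGF21 (1.03%). The endothelial marker sum was 3608 to 4615 in controls, 4195 to 6068 with FGF21 and 4455 to 5208 with the antibody, and with all arrays 2 of 10 markers were up with FGF21 (2.64% of all genes) and 1 with the antibody (2.69%). Their part in the type IV result was not tested.

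Beaded filament collagens, 4 of 5 tested, had no member that passed in either fit. Col6a1 read 10.34, 9.97, 9.99, 11.77 and 10.63 in controls, 11.98, 10.05, 10.79, 11.34 and 11.00 with FGF21, and 10.08, 9.78, 10.41, 9.98 and 10.42 with the antibody. FGF21 37 lay among the controls and the antibody arrays. Its antibody minus FGF21 difference was -0.90 ± 0.35 (limma adjusted p = 0.289) with all arrays and -0.66 ± 0.23 (adjusted p = 0.191) without control 34 and FGF21 36. For Col6a3 it was -0.95 ± 0.36 (adjusted p = 0.278) and -0.73 ± 0.22 (adjusted p = 0.119), with controls from 10.95 to 12.96, FGF21 from 11.02 to 12.91 and the antibody from 10.85 to 11.33. Col6a4 differed from the other type VI chains, with a difference between the treatments of -0.04 with all arrays and -0.15 without the 2 arrays.

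The largest difference of any tested member in the 3 comparisons of all arrays was in Col12a1, the fibril-associated type XII chain, which fell with the antibody. It read 8.24, 8.79, 8.48, 9.22 and 8.26 in controls, 9.39, 7.63, 8.69, 7.64 and 8.05 with FGF21, and 6.87, 6.79, 7.07, 6.56 and 7.53 with the antibody. All antibody arrays were below all others, while controls and FGF21 overlapped. Antibody minus control was -1.64 ± 0.31, 3.11-fold lower (limma adjusted p = 0.00934). Without control 34 and FGF21 36 it was -1.48 ± 0.23 (adjusted p = 0.00166), and the call held in each fit that left out 1 array, with log2 changes of -1.78 to -1.48. Antibody minus FGF21 was -1.32 ± 0.31 (adjusted p = 0.0846) with all arrays and -1.04 ± 0.23 (adjusted p = 0.0392) without the 2 arrays. FGF21 minus control was -0.32 ± 0.31 (adjusted p = 0.634). A second Col12a1 probe set fell by 0.55 with the antibody (adjusted p = 0.0496 over 27060 probe sets). The other 6 fibril-associated chains tested did not pass, with antibody minus control from -0.58 (Col14a1) to 0.08 with all arrays. For Col14a1 it was -0.03 without the 2 arrays.

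Other collagens gave no call in either fit. Col8a1, a short-chain network collagen of vessel walls, read 6.45 to 8.998 in controls with a median of 7.05, 6.66 to 8.97 with FGF21 with a median of 7.01, and 6.71 to 7.39 with the antibody with a median of 6.83. Its highest values were those of control 34 and FGF21 36 alone. Col15a1, a multiplexin of basement membrane zones, had an antibody minus FGF21 difference of -0.89 ± 0.33 (limma adjusted p = 0.27) with all arrays and -0.64 ± 0.22 (adjusted p = 0.171) without those arrays. The transmembrane chain Col25a1 and the anchoring fibril chain Col7a1 had differences between -0.16 and 0.21 in all 3 comparisons with all arrays.

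Among proteoglycans and glycoproteins, 8 in all, no member passed in either fit. Fn1, fibronectin, read 9.55, 8.64, 8.94, 11.77 and 9.62 in controls, 10.59, 9.21, 9.83, 10.08 and 9.82 with FGF21, and 9.77, 9.37, 9.30, 9.40 and 9.66 with the antibody. Control 34 was the highest array, and without it antibody minus control turned from -0.21 (limma adjusted p = 0.859) to 0.31 (adjusted p = 0.52). Sparc, a collagen-binding glycoprotein secreted by adipose cells, varied little, at 13.17 to 14.05 over all arrays. With all arrays its differences were -0.10 in antibody minus control, -0.01 in FGF21 minus control and -0.08 in antibody minus FGF21. Dcn, the fibril-binding proteoglycan decorin, read 11.85 to 13.13 in controls, 11.99 to 12.64 with FGF21 and 11.64 to 12.25 with the antibody. Tenascin C (Tnc) and thrombospondin 2 (Thbs2) had FGF21 minus control differences of 0.51 ± 0.56 (adjusted p = 0.671) and 0.73 ± 0.59 (adjusted p = 0.553) with all arrays. Without control 34 and FGF21 36 these were 0.94 ± 0.35 (adjusted p = 0.083) and 0.82 ± 0.27 (adjusted p = 0.0587).

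Cross-linking enzymes behaved differently from each other. Loxl1, which cross-links elastin and collagen, read 9.92, 9.54, 9.35, 10.91 and 10.10 in controls, 10.49, 10.15, 10.13, 10.64 and 10.37 with FGF21, and 10.24, 10.27, 10.30, 10.50 and 10.11 with the antibody. Apart from control 34, every control was below every treated array. With all arrays neither treatment passed (0.39 ± 0.22, limma adjusted p = 0.355, with FGF21 and 0.32 ± 0.22, adjusted p = 0.479, with the antibody). In the fit of 13 arrays, Loxl1 rose by 0.60 ± 0.16 with FGF21 (adjusted p = 0.0208) and by 0.56 ± 0.15 with the antibody (adjusted p = 0.028), while the treatments differed by -0.04 ± 0.15 (adjusted p = 0.928). Its second probe set gave 0.23 and 0.25 there (adjusted p = 0.145 and 0.112). Lox read 9.48 to 10.02 in controls, 8.91 to 10.71 with FGF21 and 9.13 to 9.49 with the antibody, and did not pass.

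None of the 3 matrix metalloproteinases passed in either fit. Mmp14, a membrane enzyme that activates Mmp2, read 8.35, 7.61, 7.96, 11.30 and 8.64 in controls, 10.27, 7.99, 8.06, 9.54 and 8.83 with FGF21, and 7.71, 7.48, 8.24, 8.22 and 8.07 with the antibody. All groups overlapped, and antibody minus FGF21 was -0.99 ± 0.60 (limma adjusted p = 0.472) with all arrays and -0.66 ± 0.30 (adjusted p = 0.323) without control 34 and FGF21 36. Mmp3, stromelysin 1, read 6.24, 6.54, 6.27, 8.48 and 6.87 in controls, 8.87, 6.59, 6.62, 7.19 and 6.96 with FGF21, and 6.60, 6.25, 6.40, 6.31 and 6.30 with the antibody. Apart from control 34 and FGF21 36 its values stayed within 6.24 to 7.19, and no comparison passed. Timp1, a metalloproteinase inhibitor, read 5.92, 5.59, 5.63, 8.14 and 6.20 in controls, 8.46, 6.31, 7.81, 6.67 and 6.91 with FGF21, and 6.09, 6.50, 6.42, 5.78 and 6.50 with the antibody. Without control 34, FGF21 lay above control throughout. FGF21 minus control was 0.94 ± 0.47 (adjusted p = 0.286) with all arrays, and Timp1 rose by 1.09 ± 0.27 (2.13-fold, adjusted p = 0.0158) without the 2 arrays.

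Genes that make, sense or organise the matrix were taken from lists of the pathways. Of 21 collagen synthesis genes tested, 2 rose with FGF21 (2.64% of all genes) and 1 with the antibody (2.69%), all arrays used. Between the treatments 1 was lower with the antibody (0.243%). P4ha1, a prolyl hydroxylase subunit needed for stable collagen helices, rose with FGF21 by 0.90 ± 0.17 (limma adjusted p = 0.00707) and with the antibody by 0.76 ± 0.17 (adjusted p = 0.0221). P3h2, a prolyl 3-hydroxylase, rose with FGF21 by 0.45 ± 0.10 (adjusted p = 0.0152) and was lower with the antibody than with FGF21 (-0.51 ± 0.10, adjusted p = 0.0438). P4ha1 read 6.66 to 7.81 in controls, 7.78 to 8.15 with FGF21 and 7.61 to 8.05 with the antibody, with control 34 as the high control. The list's medians were 0.08 with FGF21 and -0.23 with the antibody. Of 17 other metalloproteinases and inhibitors, 1 rose with FGF21 (2.64% of all genes), and none passed in the other comparisons with all arrays. It was Adamts1, a protease that cleaves proteoglycans, which rose by 0.97 ± 0.17 (adjusted p = 0.00346).

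Of 18 TGF-beta pathway genes tested, with all arrays, 1 was higher with the antibody than with control (2.69% of all genes) and 4 were lower (2.49%). Tgfbr2, the type II receptor, fell by 0.70 ± 0.11 (limma adjusted p = 0.00229), and Ltbp2, Ltbp3 and Skil fell by 0.66, 0.37 and 0.32. Smad7, an inhibitor of the pathway, rose by 0.31 with the antibody (adjusted p = 0.0295) and by 0.28 with FGF21 (adjusted p = 0.0415). With FGF21, 1 of the 18 rose (2.64% of all genes) and 2 fell (3.68%). Ltbp2, which binds microfibrils, fell by 0.92 (adjusted p = 0.00402) and Skil, which represses Smad activity, fell by 0.54 (adjusted p = 0.00111). Of 12 collagen and fibronectin receptors, 0 passed in limma with all arrays. In FGF21 minus control 1 had an unadjusted p under 0.05, against 20.4% of all genes. With the 2 high arrays left out, 2 fell with the antibody (6.97% of all genes) and 1 with FGF21 (9.46%). Of 26 other glycoproteins and proteoglycans, with all arrays, 1 rose with FGF21 (2.64% of all genes) and 1 fell with the antibody (2.49%). Between the treatments 1 was lower with the antibody (0.243%). Thbs1, thrombospondin 1, rose with FGF21 by 2.80 ± 0.23 (adjusted p = 1.15e-05) and was lower with the antibody than with FGF21 (-2.61 ± 0.23, adjusted p = 0.000215). Thbs1 read 5.05 to 5.75 in controls, 7.28 to 8.94 with FGF21 and 5.19 to 5.75 with the antibody. Its control and antibody values lay near the threshold of 5.061, so the sizes of both differences rest on dim readings. Every FGF21 array lay above all others, and FGF21 36 was the highest. Matn2, an adapter of the fibrillar matrix, fell with the antibody by 0.89 ± 0.20 (adjusted p = 0.0177).

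Probe sets of the same gene mostly pointed the same way. Among 22 members with several probe sets above the threshold, all had 1 sign in 20 for antibody minus FGF21, in 19 for antibody minus control and in 17 for FGF21 minus control. In the fit of 13 arrays these numbers were 16, 13 and 18. Neighbouring members in the genome included Col3a1 with Col5a2, Col6a1 with Col6a2, and Dcn with Lum, besides the type IV pair.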

How the data were processed

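The authors deposited linear intensities (5.58 to 34652, with array medians of 50.6 to 52.1) that they had made with RMA, per the submitters' processing notes. RMA's version and chip definition are not given in the sources used here. Of 45101 probe sets, 34958 had 1 symbol in the platform annotation, 932 several and 9211 were not listed. From the deposited intensities, log2 values were computed with no further normalisation, and each gene was represented by its brightest single-symbol probe set, if its mean exceeded the 40th percentile over probe sets. A one-way model of the 3 groups was fitted with limma 3.58.1 in R 4.3.3 (12 residual degrees of freedom, two-sided), with Benjamini-Hochberg adjustment over all 13174 genes per comparison, threshold 0.05, and again without control 34 and FGF21 36. The code was tested on simulated data. Values by array are given for members that passed in either fit. The brightest of each role, 11 fixed members and pathway genes that passed have values by array, ranges or differences. For Mmp2, the brightest of its role, only the value in control 34 is given. Tnc, Thbs2, Col4a5, Col5a2, Col6a4 and Col14a1, and the genes with the widest gaps, were named after their values were seen. Members and lists were chosen with earlier results of these data known. All groups came from the sample titles. Alternatives covered the filter, probe set choice, normalisation, array weights and left-out arrays. Arrays are separate mice.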

Additional observations from a re-analysis of the deposited data

Results flagged for a closer look

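In 9 of 63 groups of 5 arrays of named members, 1 array lay far from the other 4, further than Dixon's 95% critical value of 0.71 allows, and chance marks about 1 in 20 groups. In controls it was control 34 each time, the highest, with log2 intensities of 12.26 for Col4a1, 11.7 for Col4a2, 8.998 for Col8a1, 11.3 for Mmp14, 11.06 for Mmp2, 8.475 for Mmp3 and 8.136 for Timp1. In FGF21 it was FGF21 36, the highest, with 8.975 for Col8a1 and 8.868 for Mmp3. These groups share the same arrays, so the 9 are not separate events. Both arrays had already been singled out by values of the same genes, so the count cannot be set against the chance rate.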

How the results depend on the processing

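Precision is limited by how many arrays there are. No batch is named. No paired analysis was possible because replicate numbers do not repeat between groups. No alternative turned the sign of a median over the members. The number of members that passed in FGF21 minus control was 1, and it was 2 with the mean of all probe sets, 0 with only the 10 arrays compared, 5 with array weights, 2 with centring on ribosomal protein genes, 4 without control 34 and FGF21 36, and 0 to 5 with 1 array left out. In antibody minus FGF21 it was 0, and 9 with array weights, 3 without the 2 arrays and 0 to 4 with 1 left out. With only the 10 arrays compared, which leave out all controls, it was also 0. In antibody minus control it was 1, and 3 with array weights, 3 without the 2 arrays and 1 to 2 with 1 left out. Shares of all genes were not computed for these alternatives, apart from the fit without the 2 arrays. Medians over fits with 1 array left out were 0.03 to 0.59 in FGF21 minus control and -0.85 to -0.47 in antibody minus FGF21. In antibody minus control they were -0.54 to -0.08. Centring on 45 ribosomal protein genes moved the median of all genes by 0.11, 0.017 and 0.090 in antibody minus control, FGF21 minus control and antibody minus FGF21. All members that changed sign had values that did not pass in the fit of 15 arrays. With the mean of all probe sets of a gene, antibody minus control was 0.0026 for Col25a1, 0.025 for Col4a1, and FGF21 minus control was 0.073 for Col25a1. With array weights, antibody minus control was 0.028 for Col4a1, 0.053 for Fn1, 0.25 for Timp1, and FGF21 minus control was -0.14 for Col8a1, 0.068 for Dcn, and antibody minus FGF21 was 0.024 for Col8a1. With quantile normalization repeated, antibody minus FGF21 was 0.024 for Col25a1. With arrays centred on ribosomal protein genes, antibody minus control was 0.071 for Col25a1, 0.023 for Col4a1, 0.011 for Sparc, 0.067 for Timp1, and FGF21 minus control was 0.0049 for Sparc, and antibody minus FGF21 was 0.078 for Col25a1, 0.017 for Loxl1, 0.0064 for Sparc. Without control 34 and FGF21 36, antibody minus control was 0.031 for Col3a1, 0.062 for Col4a1, 0.091 for Col8a1, 0.31 for Fn1, 0.014 for Sparc, 0.42 for Timp1, and FGF21 minus control was 0.050 for Dcn, -0.028 for Lox, and antibody minus FGF21 was 0.041 for Col8a1, 0.033 for Sparc. With 1 array left out, antibody minus control ran from -0.087 to 0.015 for Col25a1, from -0.46 to 0.031 for Col3a1, from -0.13 to 0.062 for Col4a1, from -0.011 to 0.093 for Col4a2, from -0.033 to 0.11 for Col7a1, from -0.54 to 0.091 for Col8a1, from -0.47 to 0.31 for Fn1, from -0.14 to 0.014 for Sparc, from -0.21 to 0.42 for Timp1. In the same fits, FGF21 minus control ran from -0.078 to 0.95 for Col1a1, from -0.075 to 0.027 for Col25a1, from -0.38 to 0.47 for Col8a1, from -0.16 to 0.15 for Dcn, from -0.066 to 0.72 for Fn1, from -0.12 to 0.33 for Lox, from -0.17 to 0.80 for Mmp14, from -0.041 to 0.76 for Mmp3, from -0.13 to 0.097 for Sparc. In the same fits, antibody minus FGF21 ran from -0.052 to 0.015 for Col25a1, from -0.54 to 0.041 for Col8a1, from -0.19 to 0.033 for Sparc. The cause of these turns was not tested.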
